A study of Mus musculus with 10 samples.

Results

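The 10 genes described here encode the laminin chains, heparan sulfate proteoglycans, and linker proteins of the vascular basement membrane. They were chosen by name (*Lama4*, *Lama5*, *Lamb1*, *Lamb2*, *Lamc1*, *Hspg2*, *Agrn*, *Nid1*, *Nid2*, and *Sparc*), without use of their values in the choice rule, from 42565 genes joined over 8 plates and 32207 genes of 2 droplet libraries. All 10 were found in both data sets, and all 10 passed the filter on low counts in every fit on the plates. The questions were which laminin chains lymphatic endothelial cells (LECs), blood endothelial cells, and mural cells used, and how the genes changed in 3 models: Tie1 deletion, Tie1/-2 deletion, and angiopoietin 2 (Ang2) blockade.

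A laminin is a heterotrimer of an alpha, a beta, and a gamma chain, and its name gives the chains, so that the alpha4, beta1, and gamma1 chains form laminin 411 and the alpha5, beta1, and gamma1 chains form laminin 511. Some laminins polymerize on the cell surface, where integrins and dystroglycan bind laminins, and nidogens link laminins to the collagen IV network. Perlecan and agrin carry heparan sulfate, which binds growth factors, and in endothelium alpha4 and alpha5 are the main laminin alpha chains.

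Single LECs of mouse ear skin, sorted as CD31+ PDPN+ CD45- CD11b- Ter119-, were profiled with the Smart-seq protocol. Each of 4 genotypes filled 2 plates, 8 in total. The controls were *Tie1* fl/fl and *Tie1* *Tie2* fl/fl pups without Cre. The deleted groups carried the same floxed alleles with Prox1-CreERT2 and are named *Tie1* iΔLEC and *Tie1* *Tie2* iΔLEC. All pups of the 4 groups, controls included, received 4-hydroxytamoxifen (4-OHT, 62.5 μg) from P1 to P5, and the age label repeats these days. Replicate 1 of *Tie1* fl/fl and replicate 1 of *Tie1* iΔLEC were from females and the other 6 plates from males. Prox1-CreERT2 acts in every cell that expresses Prox1, and cells that escaped recombination can be among those sorted. The 2 droplet libraries (10x) hold CD31-sorted skin cells of male C57Bl/6j wild-type pups, 1 library after control IgG and 1 after an Ang2 blocking antibody (Ang2 Ab), each at 20 mg/kg every 3 days from P16 to P21, and the age label gives P1 to P21. The title of the Ang2 Ab library calls it a control, and its treatment label, which was followed here, calls it Ang2 antibody. The labels do not say how many mice a plate or a library holds, so p-values measure only the spread between plates, which may be technical, and the 10x libraries allow no test.

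The plates held 71309205 to 110741537 counts. Of 3048 wells, 3026 passed the filter of 1000 detected genes, and 2701 of these were kept as LECs once 300 wells of a fibroblast cluster and 25 keratinocyte wells were removed. The 10x libraries held 4685 and 4331 barcodes, 5 of them shared, of which 3438 (IgG) and 2963 (Ang2 Ab) were kept. Levels are given as CPM, counts scaled to a library total of 1000000, with TMM factors for the LEC sums of the plates. *Tie1* itself was 2228 to 2865 CPM in the 4 control plates, 680 and 661 in *Tie1* iΔLEC, and 746 and 449 in *Tie1* *Tie2* iΔLEC. *Tek*, which encodes Tie2, was 32.8 and 50.9 CPM in *Tie1* *Tie2* iΔLEC and 215 to 340 CPM in the 4 control plates. The 8 LEC markers, *Prox1* and *Pdpn* among them, were above 0 in every plate and summed to 8579 to 9986 CPM. The 5 fibroblast markers summed to 256.9 CPM in *Tie1* *Tie2* fl/fl replicate 1 and to 19.4 to 52.6 CPM in the other 7 plates. The 8 blood endothelial markers summed to 2855 and 2331 CPM in *Tie1* *Tie2* iΔLEC, the highest 2 plates, and to 1668 to 2168 CPM in the other 6. *Flt1* was at 0 in replicate 1 of *Tie1* *Tie2* iΔLEC, and the part of these reads in the folds below was not tested. The 8 mural markers summed to 5.81 to 57.5 CPM, and the 5 keratinocyte markers to 9.31 to 63.4 CPM.

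In LECs of the control plates the main laminin chains were alpha4, beta1, beta2, and gamma1, and alpha5 was low. Levels of different genes were compared per kilobase of merged exon, on GRCm38 (GENCODE annotation). *Lama4* (chr10:38965515-39110188, + strand), which encodes the alpha4 chain, was at 70.0 ± 8.78 CPM per kilobase (mean ± SD, n = 4 control plates), and *Lama5* (chr2:180176373-180225859, - strand), which encodes the alpha5 chain, was at 6.29 ± 2.00. *Lamb1* (chr12:31265234-31329644, + strand), the beta1 chain, was at 63.8 ± 2.77, and *Lamb2* (chr9:108479736-108490530, + strand), the beta2 chain, at 61.7 ± 9.72 CPM per kilobase. *Lamc1* (chr1:153218922-153332786, - strand), which encodes the gamma1 chain shared by these laminins, was at 58.1 ± 4.79 CPM per kilobase.

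Of the genes described here, the proteoglycans agrin and perlecan were lower than the chains other than alpha5, and the linkers were among the highest. *Agrn* (chr4:156165290-156197488, - strand), which encodes agrin, was at 43.3 ± 4.07 CPM per kilobase, and *Hspg2* (chr4:137468769-137570630, + strand), which encodes perlecan, at 15.7 ± 4.05. *Nid1* (chr13:13437551-13512269, + strand) and *Nid2* (chr14:19751265-19811787, + strand), the nidogens, were at 76.8 ± 13.8 and 76.2 ± 13.7 CPM per kilobase. *Sparc* (chr11:55394500-55423183, - strand), a collagen-binding matricellular protein of basement membranes, was at 54.7 ± 16.9 CPM per kilobase. In this order of levels the 8 genes from *Nid1* down to *Agrn* had overlapping ranges between neighbors. Between neighbors the order was clear of the plate spread only below *Agrn*, with *Hspg2* at 12.1 to 19.7 and *Lama5* at 3.52 to 7.90 CPM per kilobase. *Agrn*, at 39.3 to 48.0, overlapped *Sparc* (38.3 to 69.8). It lay under the ranges of *Lama4*, *Lamb1*, *Lamb2*, *Lamc1*, *Nid1*, and *Nid2*. *Nid2* shares 437 exon bases with the oppositely oriented *Rtraf*, and *Nid1* shares 143 with the antisense *Gm48682*, so their counts are uncertain where the counting did not use strand.

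As a share of the alpha4 and alpha5 reads per kilobase, *Lama5* took 11.7% and 4.73% in *Tie1* fl/fl and 7.31% and 9.67% in *Tie1* *Tie2* fl/fl LECs. The same share was 11.3% and 8.94% in *Tie1* iΔLEC and 3.22% and 2.71% in *Tie1* *Tie2* iΔLEC. Both plates with Tie1/-2 deletion were thus below the lowest of the other 6. *Lamb2* took 46.3% to 52.9% of the beta1 and beta2 reads per kilobase in the 4 control plates, 49.2% and 52.1% in *Tie1* iΔLEC, and 61.6% and 55.6% in *Tie1* *Tie2* iΔLEC.

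Tie1/-2 deletion lowered *Agrn*, and no other of the 10 genes passed the test in LECs. *Agrn* was 445.6 and 376.5 CPM in *Tie1* *Tie2* fl/fl and 194.7 and 131.4 CPM in *Tie1* *Tie2* iΔLEC. In the other strain it was 365.1 and 421.0 CPM in *Tie1* fl/fl and 420.3 and 394.0 CPM in *Tie1* iΔLEC. The 2 plates with Tie1/-2 deletion were the lowest of the 8 and did not overlap the rest. The fall was -1.33 ± 0.24 on the log2 scale (SE, edgeR quasi-likelihood test, adjusted p = 0.0423), or 1 of 10 members called where 1.20% of 19930 genes were called (0.893% lower and 0.306% higher). It was -1.19 between the plates whose tables list Ensembl identifiers and -1.52 between those that list symbols. The call was lost in 7 of 8 fits that left out 1 plate (adjusted p 0.0313 to 0.361, with -1.67 to -1.08 on the log2 scale) and held only without *Tie1* *Tie2* iΔLEC replicate 1. It was also lost with RLE size factors (adjusted p = 0.0662) and with the 4 plates of the strain alone (adjusted p = 0.130).

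**Figure D1:**
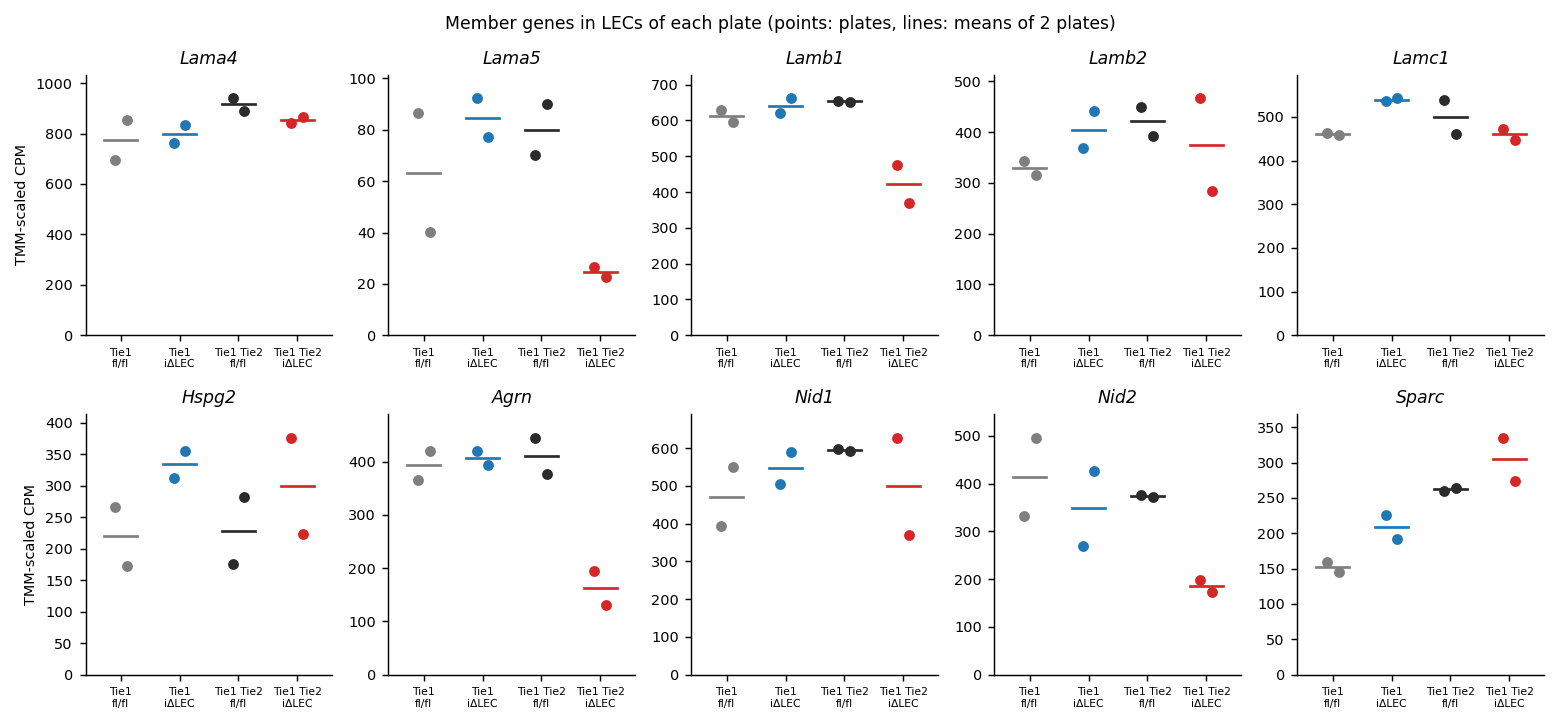
TMM-scaled CPM (y axis, from 0) of the 10 genes in LECs of each plate, with 1 point per plate and a line at the mean of the 2 plates of each genotype. *Agrn*, *Lama5*, *Lamb1*, and *Nid2* have their lowest 2 plates in *Tie1* *Tie2* iΔLEC, while *Lama4* and *Lamc1* differ little between genotypes. The share of all genes with their lowest 2 plates there is not given.

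With Tie1/-2 deletion *Lama5* had the lowest estimate of the 10 and missed the test. It was 70.0 and 90.0 CPM in *Tie1* *Tie2* fl/fl and 26.4 and 22.8 CPM in *Tie1* *Tie2* iΔLEC. *Tie1* fl/fl plates were at 86.6 and 40.0 CPM and *Tie1* iΔLEC plates at 92.3 and 77.1 CPM, so the 2 plates with Tie1/-2 deletion were again the lowest of the 8. The estimate was -1.69 ± 0.38 on the log2 scale (edgeR adjusted p = 0.105). It passed the test with DESeq2 (adjusted p = 0.0012), which called 5.19% of all genes, without *Tie1* fl/fl replicate 1 (edgeR adjusted p = 0.0426), and without *Tie1* fl/fl replicate 2 (edgeR adjusted p = 0.0475).

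*Lamb1* and *Nid2* had lower values in both plates with Tie1/-2 deletion than in the other 6. *Lamb1* was 653.5 and 652.7 CPM in *Tie1* *Tie2* fl/fl and 474.4 and 368.8 CPM in *Tie1* *Tie2* iΔLEC (-0.62 ± 0.19 on the log2 scale, edgeR adjusted p = 0.249). In the other strain it lay between 595.1 and 662.0 CPM. *Nid2* was 376.8 and 371.7 CPM in *Tie1* *Tie2* fl/fl and 198.8 and 173.1 CPM in *Tie1* *Tie2* iΔLEC (-1.002 ± 0.28, edgeR adjusted p = 0.218), and 269.8 to 496.3 CPM in the other strain. Neither gene passed the test. How many of all genes have their lowest 2 plates in *Tie1* *Tie2* iΔLEC is not given. The pattern is thus not set against a background for any gene named here.

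The remaining 6 genes had estimates between -0.25 and 0.40 on the log2 scale with Tie1/-2 deletion. *Lama4* stayed between 841.2 and 939.9 CPM in the 4 plates of the *Tie1* *Tie2* strain, and *Lamc1* between 447.0 and 539.8 CPM. *Hspg2* was 176.0 and 281.5 CPM in controls and 376.7 and 223.3 CPM after deletion, with overlapping plates. *Sparc* was 260.1 and 264.4 CPM in controls and 335.4 and 274.3 CPM after deletion (0.22 on the log2 scale, not called). *Lamb2* (283.6 to 466.8 CPM) and *Nid1* (370.0 to 627.8 CPM) had 1 deleted plate above and 1 below both of their controls. The median of the 10 estimates was -0.20, against -5.5e-05 over all genes tested.

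Fibroblast reads differed between the plates of this contrast, by level mainly in 1 control plate. *Dcn*, a fibroblast proteoglycan gene, was 144.1 CPM in LEC sums of *Tie1* *Tie2* fl/fl replicate 1 and 10.8 to 22.8 CPM in the other plates, here without TMM factors. LEC wells without any read of the fibroblast markers numbered 11 of 302 and 21 of 338 in *Tie1* fl/fl. They numbered 21 of 340 and 85 of 347 in *Tie1* iΔLEC. In *Tie1* *Tie2* fl/fl they numbered 1 of 332 and 12 of 334, and in *Tie1* *Tie2* iΔLEC 315 of 360 and 126 of 348. In those wells alone the estimate of *Agrn* was -1.26 (edgeR adjusted p = 0.647) and that of *Lama5* 0.20, with a single well left in 1 control plate. The part of these reads in the folds was not tested. In sums of this kind, fewer cells of a type and less RNA per cell cannot be told apart.

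Tie1 deletion alone called none of the 10 genes with edgeR, where 0.00% of 19930 genes were called, and 0 of the 10 had an unadjusted p under 0.05. The targeted *Tie1* was among the genes tested and not called, at 2228 and 2865 CPM in *Tie1* fl/fl and 680 and 661 CPM in *Tie1* iΔLEC. The lack of calls in this contrast therefore does not show a lack of change. DESeq2 called 0 of the 10 and 0.863% of all genes. The highest estimates were those of *Hspg2* (219.6 ± 66.3 CPM in *Tie1* fl/fl and 334.3 ± 30.5 CPM in *Tie1* iΔLEC, SD, n = 2 plates each; 0.60 ± 0.34 on the log2 scale) and *Sparc* (158.7 and 145.1 CPM against 225.9 and 191.2 CPM; 0.46 ± 0.21). For *Hspg2* the log2 fold was 1.04 between the plates whose tables list Ensembl identifiers and 0.23 between those that list symbols. In this strain the plates with symbols are the female ones, so layout and sex cannot be told apart. The median of the 10 was 0.22, against 0.00 over all genes.

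The difference between the deletions was tested as an interaction. It was -1.38 ± 0.33 on the log2 scale for *Agrn* (edgeR adjusted p = 0.295) and -2.11 ± 0.53 for *Lama5* (edgeR adjusted p = 0.312). None of the 10 passed where 0.130% of genes did, and DESeq2 called *Lama5* and 2.24% of all genes. With edgeR, 3 of the 10 had an unadjusted p under 0.05. Counts of members at that threshold are not set against all genes, here or below, so whether they are more than the share of all genes was not tested. The average effect of the deletions called 0 of the 10 with edgeR, where 0.958% of genes were called, and 4 had an unadjusted p under 0.05. DESeq2 called *Agrn* in the average effect, and 4.47% of all genes.

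**Figure D2:**
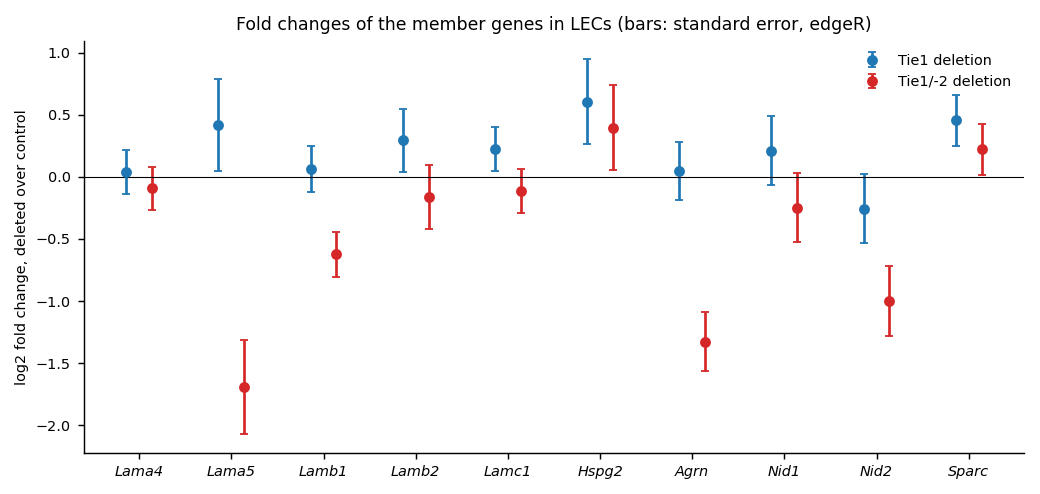
Log2 fold changes of the 10 genes (y axis) with Tie1 deletion and with Tie1/-2 deletion in LECs, as edgeR estimates with bars of 1 SE, n = 2 plates per genotype. With Tie1/-2 deletion *Agrn* (-1.33) and *Lama5* (-1.69) lie farthest from 0, and *Agrn* is the gene that passed the test.

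The promoters of *Lama5* and *Agrn* are shown because these genes had the lowest estimates with Tie1/-2 deletion. They run from 250 bases before to 50 after the RefSeq transcription start on GRCm38.p6, at chr2:180225810-180226109 (- strand) and chr4:156197439-156197738 (- strand), are printed 5′ to 3′, and have GC boxes (GGGCGG, or CCGCCC on the other strand) in capitals.
Lama5: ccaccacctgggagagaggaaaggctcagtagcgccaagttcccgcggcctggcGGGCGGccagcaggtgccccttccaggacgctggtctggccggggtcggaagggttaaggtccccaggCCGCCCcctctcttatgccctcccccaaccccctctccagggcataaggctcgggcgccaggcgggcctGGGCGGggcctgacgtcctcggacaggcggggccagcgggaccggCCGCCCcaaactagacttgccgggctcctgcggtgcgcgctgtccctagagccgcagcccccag
Agrn: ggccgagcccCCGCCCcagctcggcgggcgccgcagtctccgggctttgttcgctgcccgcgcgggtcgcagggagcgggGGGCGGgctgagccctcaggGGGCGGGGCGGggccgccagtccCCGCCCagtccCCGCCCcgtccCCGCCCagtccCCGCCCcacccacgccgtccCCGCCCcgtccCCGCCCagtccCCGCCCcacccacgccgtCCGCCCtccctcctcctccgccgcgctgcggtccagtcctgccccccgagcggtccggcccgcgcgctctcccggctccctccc
*Lama5* held 4 GC boxes and this *Agrn* promoter 12, and 35.7% of 32851 promoters of the same length held at least 1. The FOXO core motif GTAAACA, which the forkhead factors downstream of PI3K bind, was searched on both strands and had no match in the promoters of the 7 members that the RefSeq table lists (*Lama5*, *Lamb1*, *Lamb2*, *Hspg2*, *Agrn*, *Nid1*, and *Sparc*), and it was present in 3.65% of all promoters. *Lama4*, *Lamc1*, and *Nid2* had no entry. A match describes these letters only.

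Within LECs, chain use differed between valve and capillary cells. Clustering without the 10 genes and the other genes of the pathway gave a capillary-like class of 492 wells, a collector-like class of 398 wells, and a valve-like class of 466 wells, named from markers of each vessel type. The capillary-like class raised 3 of 7 capillary markers. A cluster of 382 wells with predicted gene models among its leading genes raised 5 of 7 and stayed unnamed for those leading genes. With it in the class, an alternative added after the data were seen, the differences between valve-like and capillary-like wells were 3.81 for *Lama5*, -1.92 for *Nid2*, and -2.73 for *Sparc* on the log2 scale. Capillary LECs are the blind-ended absorbing vessels, collectors carry the lymph onward, and valve LECs form the leaflets that keep flow in 1 direction. Differences between classes were taken within each plate on the scale of log2(CPM + 1).

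*Lama5* was the member with the largest difference between valve-like and capillary-like wells. It was 435.3 and 181.9 CPM in valve-like wells of *Tie1* fl/fl, 252.6 and 334.7 CPM in *Tie1* *Tie2* fl/fl, 329.7 and 213.1 CPM in *Tie1* iΔLEC, and 47.3 and 48.0 CPM in *Tie1* *Tie2* iΔLEC. In capillary-like wells of the same plates it was 0.8 to 23.4 CPM. All 8 plates were higher in valve-like wells, by 4.00 on the log2 scale (exact two-sided permutation test over 8 plates, p = 0.0078, the smallest p that 8 plates allow). Its share of the alpha chains per kilobase was 20.0% to 43.7% in valve-like wells of the 4 control plates and 0.117% to 2.31% in capillary-like wells.

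The linkers, perlecan, and *Sparc* had the opposite pattern. *Nid2* was 77.4 to 134.4 CPM in valve-like and 334.2 to 606.1 CPM in capillary-like wells of the 4 control plates, a difference of -2.04 over the 8 plates. *Sparc* was 12.04 to 74.2 CPM in valve-like and 182.6 to 244.2 CPM in capillary-like wells of the control plates, a difference of -3.01 over the 8 plates. *Nid1* (-0.92) and *Hspg2* (-0.66) were lower to a smaller extent. These 4 genes were lower in valve-like wells of 8 of 8 plates (exact two-sided permutation test, p = 0.0078 each).

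The beta chains differed less between these classes. *Lamb1* was lower in valve-like wells of 7 of 8 plates (-0.59 on the log2 scale, exact permutation p = 0.0234), and *Lamb2* was higher in 5 of 8 (0.34, exact permutation p = 0.180). *Lamb2* took 59.6% to 85.2% of the beta chains per kilobase in valve-like wells of the control plates, 44.4% to 58.8% in capillary-like wells, and 33.1% to 46.3% in collector-like wells. Valve-like and collector-like wells were not tested against each other. *Agrn* was higher in valve-like wells of 7 of 8 plates (0.55, exact permutation p = 0.0234). *Lama4* and *Lamc1* had differences of -0.33 and -0.24 (exact permutation p = 0.125 and 0.0781).

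After adjustment over 13873 genes the exact test called 0 members and 0.00% of genes, since 8 plates allow no adjusted p under 0.113 there. edgeR with the plate as a block, a fit added after the data were seen, called 6 of the 10 where 4.44% of 13798 genes were called (2.19% higher and 2.25% lower in valve-like wells). They were *Lama5* (3.92 ± 0.85 on the log2 scale, edgeR adjusted p = 0.0092), *Lamb1* (-0.63 ± 0.17, adjusted p = 0.0356), *Hspg2* (-0.71 ± 0.17, adjusted p = 0.0183), *Nid1* (-0.96 ± 0.13, adjusted p = 0.000122), *Nid2* (-2.05 ± 0.21, adjusted p = 7.07e-06), and *Sparc* (-3.11 ± 0.53, adjusted p = 0.00107). Without 1 plate in turn, *Lama5*, *Nid1*, *Nid2*, and *Sparc* were called in 8 of 8 fits, *Hspg2* was lost in 3, and *Lamb1* was lost in 6.

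Between collector-like and capillary-like wells none of the 10 genes passed the test. edgeR with the plate as a block called 0 members and 1.72% of genes, with *Agrn* alone at an unadjusted p under 0.05 (0.51 ± 0.18, unadjusted p = 0.0113). The exact permutation test gave unadjusted p values of 0.0469 for *Lamb2* (-0.49) and 0.0391 for *Lamc1* (-0.44), and called 0 members after adjustment. In the droplets the collector-like to capillary-like ratio of *Agrn* was 0.611 (exact 95% interval 0.553 to 0.676) with IgG and 0.933 (0.788 to 1.105) with Ang2 Ab, not above 1 in either library. *Lama4* was at 0.484 and 0.621 times, *Lamc1* at 0.497 and 0.599 times, and *Lamb2* at 0.467 and 0.765 times the capillary-like level there.

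Within the classes, Tie1/-2 deletion called *Agrn* in collector-like wells and no member in the others. Collector-like *Agrn* was 516.7 and 435.3 CPM in *Tie1* *Tie2* fl/fl and 117.8 and 95.3 CPM in *Tie1* *Tie2* iΔLEC, with 420.3 to 580.0 CPM in the other 4 plates. The change was -2.16 ± 0.31 on the log2 scale (edgeR adjusted p = 0.0267), where 0.628% of 14481 genes were called and the median of all genes was -0.30. The deleted plates held 10 and 8 collector-like wells and their controls 78 and 76. The call held only without either *Tie1* *Tie2* iΔLEC plate (adjusted p = 0.0121 without replicate 1 and 0.0189 without replicate 2) and was lost in the other 6 fits that left out 1 plate. DESeq2 called *Agrn*, *Lama5*, *Lamc1*, and *Sparc* in these wells, and 12.2% of all genes. Collector-like *Sparc* was 577.2 and 572.1 CPM in controls and 144.3 and 27.1 CPM after deletion (-2.75 ± 0.70, edgeR adjusted p = 0.129), the opposite direction to capillary-like wells. Collector-like *Lamc1* was 280.3 and 311.5 CPM in controls and 615.6 and 602.1 CPM after deletion (1.04 ± 0.28, edgeR adjusted p = 0.143). Neither passed the edgeR test. *Lama5* in the same wells was 66.1 and 37.9 CPM in controls and 0.0 and 0.8 CPM after deletion, and it did not pass the test (edgeR adjusted p = 0.0952).

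In valve-like wells edgeR called 0 members and 0.313% of 15018 genes with Tie1/-2 deletion. That class pools clusters of 364 and 102 wells, the second with *Cd79a* among its leading genes, and their mix by genotype was not tested. *Lama5* there had the lowest estimate, from the 252.6 and 334.7 CPM given above to 47.3 and 48.0 CPM (-2.62 ± 0.46, edgeR adjusted p = 0.0651). Its share of the alpha chains per kilobase was 5.53% and 5.76% in those wells of *Tie1* *Tie2* iΔLEC and 41.8% and 30.1% in *Tie1* iΔLEC. *Lamb2* was 822.4 and 706.5 CPM in controls and 378.1 and 231.9 CPM after deletion (-1.33 ± 0.30, edgeR adjusted p = 0.176), and *Agrn* was at -1.59 ± 0.36 (edgeR adjusted p = 0.176). *Lama5*, *Lamb2*, *Agrn*, and *Hspg2* had an unadjusted edgeR p under 0.05, and the share of all genes at that threshold is not given. DESeq2 called the first 3 of these and 2.99% of all genes. *Lama5* passed the edgeR test without *Tie1* fl/fl replicate 1 (adjusted p = 0.0240) and without *Tie1* fl/fl replicate 2 (adjusted p = 0.0210).

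In capillary-like wells edgeR called 0 members and 0.381% of 14973 genes with Tie1/-2 deletion. *Sparc* was 244.2 and 184.8 CPM in controls and 730.0 and 536.4 CPM after deletion (1.56 ± 0.30, edgeR adjusted p = 0.0881), and the 2 deleted plates were the highest of the 8. Fibroblast markers summed to 283.0 and 74.2 CPM in those control wells and to 33.9 and 46.0 CPM in the deleted ones, and mural markers to 87.9 and 6.35 CPM against 3.59 and 11.4 CPM. Blood endothelial markers summed to 1522 and 1838 CPM in those control wells and to 3613 and 2461 CPM in the deleted ones, with *Flt1* and *Ly6c1* at 0 in 1 deleted plate and *Flt1* at 0 in 1 control plate. The part of these reads in the *Sparc* values was not tested. *Agrn* (-1.42 ± 0.38), *Lamb1* (-0.98 ± 0.25), and *Lama4* (-0.58 ± 0.22) had, like *Sparc*, an unadjusted edgeR p under 0.05. The share of all genes at that threshold is not given. DESeq2 called *Agrn* and *Sparc* and 3.47% of all genes. Tie1 deletion alone called 0 members and 0.00% of genes in each of the 3 classes with edgeR, with 0 members at an unadjusted p under 0.05, and DESeq2 called 0 members in each, with 1.54% of all genes in capillary-like, 0.552% in collector-like, and 1.04% in valve-like wells.

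**Figure D3:**
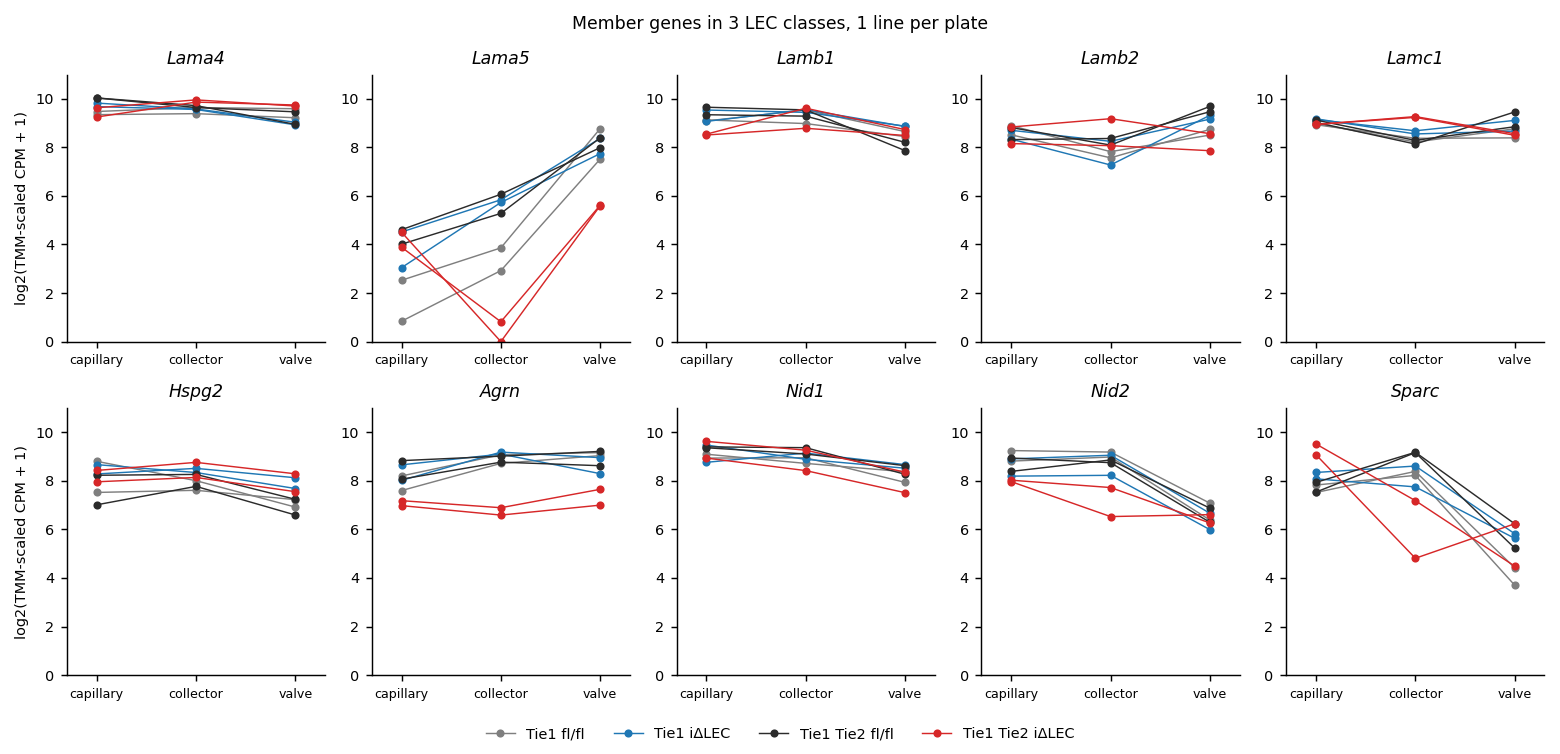
Log2(CPM + 1) of the 10 genes (y axis) in capillary-like, collector-like, and valve-like wells, with 1 line per plate over 8 plates, colored by genotype. *Lama5* is higher and *Hspg2*, *Nid1*, *Nid2*, and *Sparc* are lower in valve-like than in capillary-like wells of all 8 plates.

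In the 10x libraries, LECs summed over their classes held more *Lama4*, *Lamb1*, *Lamc1*, and *Nid1* than blood endothelial cells and less *Lama5*, *Lamb2*, *Hspg2*, and *Sparc*. For *Lamb1*, *Lamc1*, and *Nid1* not every LEC class was above the blood endothelial level. Values are CPM of unique molecular identifiers (UMIs) summed over all cells of a class, without TMM factors, with exact 95% intervals that cover counting error only, and genes were compared between classes but not with each other. The LECs numbered 1170 (IgG) and 627 (Ang2 Ab), the blood endothelial cells 1279 and 1325, and the mural cells (pericytes and smooth muscle cells) 179 and 220. *Pecam1*, which encodes CD31, was at 1443 and 1614 CPM in blood endothelial, 637 and 681 in lymphatic, and 354 and 227 in mural cells. *Rgs5*, a pericyte gene, was at 9019 and 8997 in mural cells and 226 and 225 in blood endothelial cells.

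Among the alpha chains, *Lama4* was at 533 (IgG) and 564 (Ang2 Ab) CPM in LECs, 273 and 346 in blood endothelial cells, and 195 and 204 in mural cells. LECs thus held 1.96 times the blood endothelial level with IgG (interval 1.88 to 2.03) and 1.63 times with Ang2 Ab (1.56 to 1.70). *Lama5* was instead lowest in LECs, at 16.7 and 14.0, against 122 and 116 in blood endothelial cells and 60.4 and 82.1 in mural cells. The LEC to blood endothelial ratio was 0.137 (0.120 to 0.156) with IgG and 0.120 (0.0986 to 0.145) with Ang2 Ab. With an unnamed cluster high in *Prox1* counted as LECs, an alternative added after the data were seen, LECs held 31.1 and 26.5 CPM of *Lama5*. Among the endothelial classes *Lama5* was highest in arterial cells (200 and 183). Capillary-like LECs were at 8.97 and 5.87 and fibroblasts at 4.24 and 3.20.

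*Lama5* UMIs were seen in 9.09% and 6.38% of capillary-like LECs and in 46.6% and 41.1% of valve-like LECs. The share was 6.38% and 5.26% in fibroblasts, a class that should hold little of the alpha5 chain, at median depths of 18840 and 15773.5 UMIs against 11144 and 11284.5 in capillary-like LECs. The fibroblast class held only 47 and 38 cells, with 4 and 2 *Lama5* UMIs, against 46 and 21 UMIs in capillary-like LECs. The capillary-like share was thus not clearly above that of these few fibroblasts. The valve-like share, at median depths of 11115 and 12196.5 UMIs, was higher.

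The beta chains split in the same way between lymphatic and arterial cells. *Lamb1* was at 292 and 270 CPM in LECs, 187 and 238 in blood endothelial cells, and 197 and 207 in mural cells, and at 423 and 310 in capillary-like LECs. That was its highest class with IgG, while with Ang2 Ab blood capillary cells (350) and fibroblasts (335) were higher. *Lamb2* was at 80.6 and 97.6 in LECs, 155 and 159 in blood endothelial cells, and 192 and 228 in mural cells, and among the endothelial classes was highest in arterial cells (343 and 326). Arterial cells held 52.9 and 53.2 of *Lamb1*. *Lamc1*, the gamma chain of all these trimers, was at 366 and 391 in LECs, 287 and 316 in blood endothelial cells, and 326 and 339 in mural cells. LECs held 1.27 times the blood endothelial level with IgG (1.22 to 1.33) and 1.24 times with Ang2 Ab (1.18 to 1.30). By class, *Lamc1* was at 542 and 493 in capillary-like and 323 and 339 in valve-like LECs. Collector-like LECs, at 269 and 296, were below the blood endothelial level. *Lamb1* was at 253 and 262 in collector-like LECs, and at 127 and 155, below the blood endothelial level, in valve-like LECs.

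Perlecan was a gene of the blood vessel side. *Hspg2* was at 165 and 238 CPM in LECs, 667 and 784 in blood endothelial cells, and 408 and 387 in mural cells, with its highest class in blood capillary cells (1016 and 1071). *Agrn* was at 114 and 80.5 in LECs, 96.7 and 86.7 in blood endothelial cells, and 54.0 and 54.1 in mural cells. The LEC to blood endothelial ratio of *Agrn* was 1.18 (1.09 to 1.27) with IgG and 0.929 (0.842 to 1.02) with Ang2 Ab, so its order between these cells differed between the libraries.

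*Nid1* was highest in mural cells among the 3 groups, at 463 and 489 CPM, against 252 and 283 in LECs and 215 and 237 in blood endothelial cells. By class, it was at 317 and 344 in capillary-like and 227 and 235 in collector-like LECs. Valve-like LECs, at 199 and 181, were below the blood endothelial level. *Nid2* lay between 67.2 and 95.3 in the 3 groups, and the LEC to blood endothelial ratio was 0.963 (0.880 to 1.05) with IgG and 0.752 (0.680 to 0.830) with Ang2 Ab. *Sparc* was at 4614 and 4847 in blood endothelial cells, 7457 and 7514 in mural cells, and 404 and 399 in LECs. The share of cells with a *Sparc* UMI was 62.7% and 63.1% in capillary-like LECs and 76.9% and 65.5% in keratinocytes, a class with median depths of 10215 and 12282 UMIs. The capillary-like share was thus not above that of keratinocytes. Whether the keratinocyte value is a background was not tested. Valve-like LECs held 87.9 and 96.7 CPM of *Sparc*, and capillary-like LECs 169 and 180. Proliferating LECs, part of the LEC sum, held 1447 and 2408 CPM.

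**Figure D4:**
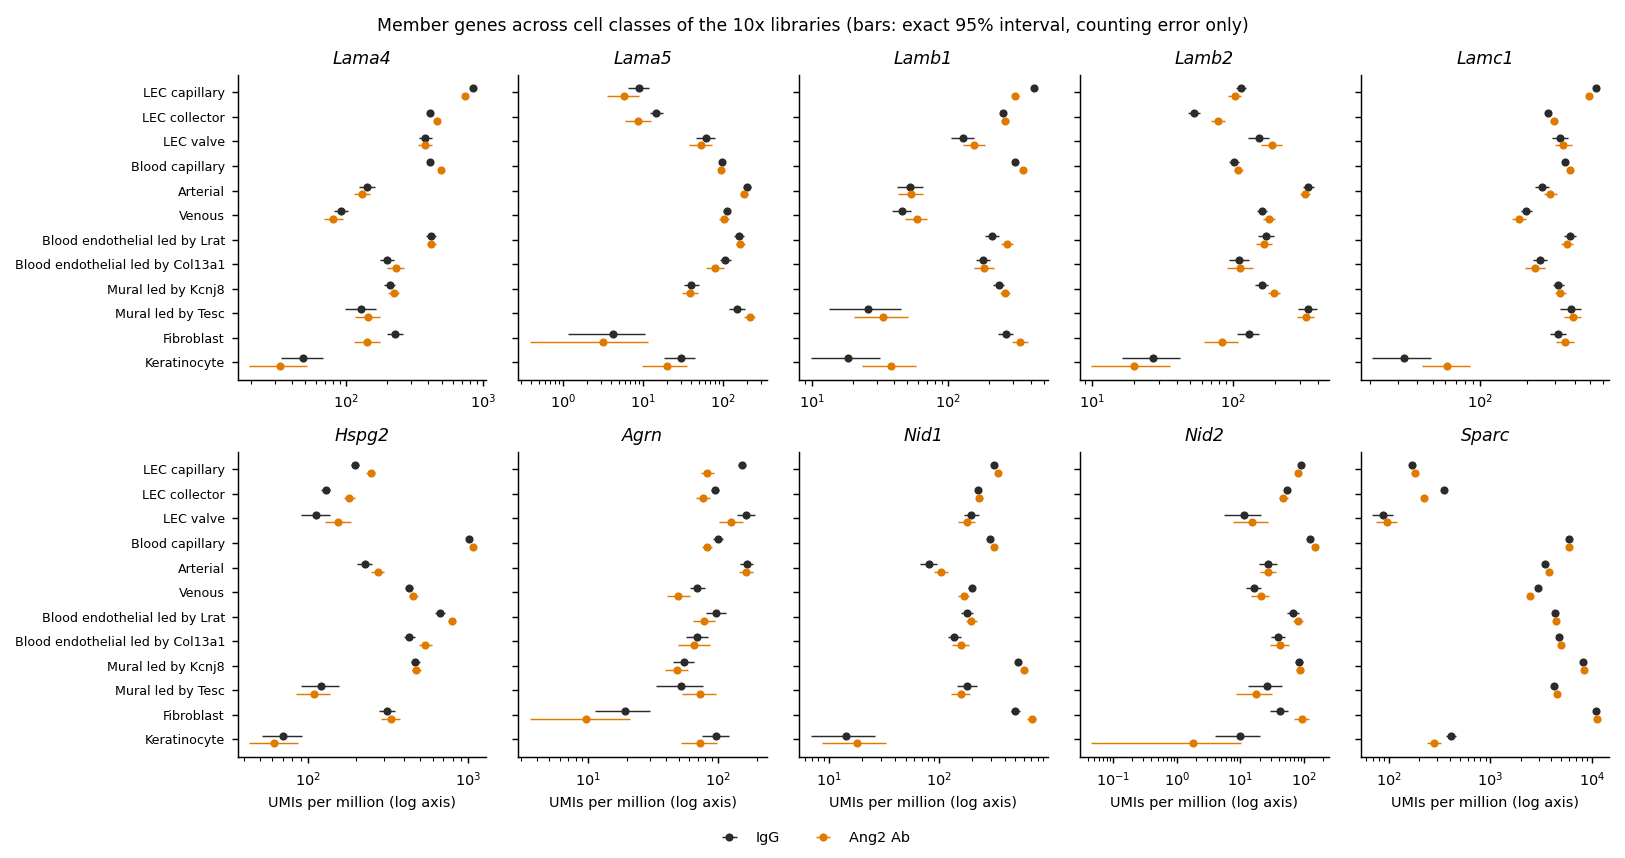
CPM (x axis, log scale) of the 10 genes in each cell class of the IgG and Ang2 Ab libraries, with exact 95% intervals that cover counting error only. *Lama4* and *Lamc1* are highest in capillary-like LECs of both libraries, *Lama5* is lowest in fibroblasts, and *Sparc* is above 2000 in every blood endothelial and mural class.

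The mural cells fell into clusters led by *Kcnj8*, a pericyte gene, and by *Tesc*, with *Myh11* and *Acta2* of smooth muscle among its leading genes. *Lama5* was at 40.7 and 39.3 CPM in the *Kcnj8* cluster and 152 and 218 in the *Tesc* cluster. *Lamb2* followed it with 161 and 196 against 339 and 328, while *Lamb1* was at 234 and 262 against 25.8 and 33.1. *Nid1* (522 and 593 against 182 and 159), *Nid2*, and *Hspg2* were higher in the *Kcnj8* cluster in both libraries. Arterial endothelial cells and the *Tesc* cluster thus shared higher *Lama5* and *Lamb2* and lower *Lamb1* than the blood capillary cells and the *Kcnj8* cluster, respectively.

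The 6 genes called between valve-like and capillary-like wells of the plates had the same direction in the droplets. The share of all called genes that kept their direction is not given. The valve-like classes also differ, since the plate class includes a cluster with *Cd79a* among its leading genes. A droplet cluster led by *Cd79a* stayed unnamed and is not in the droplet class. *Lama5* was at 61.3 and 53.9 CPM in valve-like LECs, against 8.97 and 5.87 in capillary-like LECs. No ratio is given, since the capillary-like share of cells was not clearly above that of the few fibroblasts. *Nid2* was at 0.127 times (0.0605 to 0.236) and 0.190 times (0.0938 to 0.345), *Lamb1* at 0.301 and 0.500 times, *Hspg2* at 0.569 and 0.630 times, and *Nid1* at 0.626 and 0.526 times the capillary-like level. *Lama4* was at 0.447 (0.399 to 0.501) and 0.513 times and *Lamc1* at 0.595 and 0.687 times, lower than in capillary-like LECs of both libraries, where the plates had given -0.33 and -0.24 without a call. *Sparc* was at 0.519 and 0.536 times, at levels under those of keratinocytes. The valve-like classes held 73 and 56 cells, 1 library each, and the clustering had left out the 10 genes.

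Ang2 Ab moved none of the 10 genes past 1.5-fold in LECs, where 7.85% of 10570 genes with at least 100 UMIs passed (3.55% higher and 4.30% lower). With 1 library per treatment these ratios have no replicate check. *Agrn* had the lowest ratio, from 114 to 80.5 CPM (0.707, interval 0.647 to 0.772), and *Hspg2* the highest, from 165 to 238 (1.45, interval 1.37 to 1.53). *Lamb2* was at 1.21 (1.11 to 1.32), *Lama5* at 0.835 (0.668 to 1.04), and the other 6 between 0.924 and 1.12. The LEC sums hold different mixes of classes, with 588 collector-like and 429 capillary-like of 1170 cells after IgG and 242 and 282 of 627 after Ang2 Ab. Within capillary-like LECs *Lamb1* was at 0.732 (0.680 to 0.787) and *Lama4* at 0.877 (0.835 to 0.921).

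By class, *Agrn* in capillary-like LECs and *Sparc* and *Lama5* in collector-like LECs passed 1.5-fold. Capillary-like *Agrn* was 154 with IgG and 82.5 with Ang2 Ab (0.535, interval 0.466 to 0.612), where 7.72% of 8418 genes passed. Collector-like *Sparc* was 351 and 224 (0.640, interval 0.591 to 0.693), and collector-like *Lama5* was 14.9 and 8.87, on 124 and 31 UMIs (0.595, interval 0.388 to 0.888), where 7.87% of 8790 genes passed. Collector-like *Sparc* was below the keratinocyte level of the same library. For *Lama5*, fibroblasts, the background class used above, held 4.24 and 3.20 CPM on 4 and 2 UMIs. The collector-like class had *Socs3*, *Zfp36*, *Fosb*, *Atf3*, and *Fos*, genes of the immediate-early response, among its leading genes over both libraries, and their part in these ratios was not tested. Valve-like *Agrn* was at 0.769 (0.585 to 1.01) and collector-like *Agrn* at 0.817 (0.708 to 0.939).

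**Figure D5:**
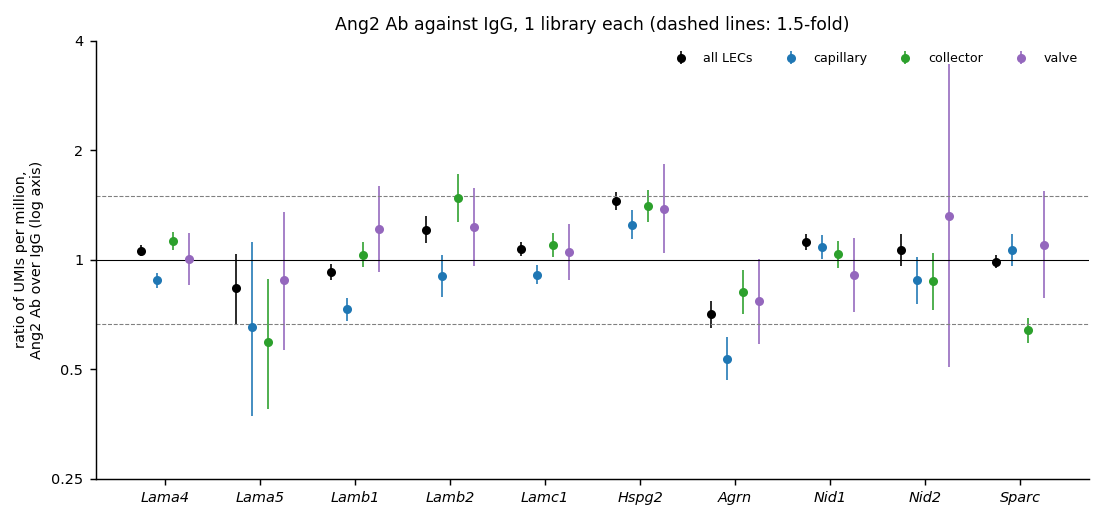
Ratio of CPM, Ang2 Ab over IgG (y axis, log scale), of the 10 genes in all LECs and in capillary-like, collector-like, and valve-like LECs, with 1 library per treatment and exact 95% intervals. Dashed lines mark 1.5-fold; *Agrn* lies under 1 in all 4 groups and under the lower line in capillary-like LECs, and *Hspg2* lies above 1 in all 4.

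In blood endothelial cells, 0 of the 10 passed 1.5-fold where 3.71% of genes did, with *Nid2* at 1.37 (1.25 to 1.49), *Lama4* at 1.27 (1.21 to 1.33), and *Lamb1* at 1.27 (1.21 to 1.35) the highest. In mural cells 0 passed where 5.01% did, and *Lama5* had the highest ratio (1.36, interval 1.103 to 1.68). Side by side, the estimates of *Agrn* were 0.05 on the log2 scale with Tie1 deletion and -1.33 with Tie1/-2 deletion in plates, and a ratio of 0.707 with Ang2 Ab in droplets. The Ang2 Ab model differs from the deletions in the assay, the age, and the length of treatment, and it was not tested against them. The deletions share the assay and the days of 4-OHT, and the test of their difference is given above.

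Of 61 other genes of the basement membrane, in 6 lists, 55 could be tested in the plates, and Tie1/-2 deletion called 0 of them higher and 4 lower, where the same test called 0.306% of all genes higher and 0.893% lower. Among the laminin receptors, *Bcam*, which binds the alpha5 chain, was 85.9 and 132.1 CPM in *Tie1* *Tie2* fl/fl and 21.7 and 13.7 CPM in *Tie1* *Tie2* iΔLEC (-2.62 ± 0.32, edgeR adjusted p = 0.0078). It was 117.5 and 125.1 CPM in *Tie1* fl/fl and 96.8 and 89.02 CPM in *Tie1* iΔLEC, so the 2 plates with Tie1/-2 deletion were the lowest of the 8. By class, *Bcam* was 149.4 and 278.8 CPM in collector-like and 8.24 and 47.0 CPM in capillary-like wells of *Tie1* *Tie2* fl/fl. After Tie1/-2 deletion these were 0 and 34.7 CPM, and 2.01 and 8.24 CPM. The deleted plates held fewer collector-like wells than their controls, as given above. The part of this in the LEC sums was not tested. The other 8 receptors tested, integrin chains and dystroglycan among them, were not called.

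Among cell-surface heparan sulfate proteoglycans, *Sdc2*, a syndecan, was 58.4 and 44.7 CPM in controls and 7.61 and 3.87 CPM after Tie1/-2 deletion (-3.16 ± 0.52, edgeR adjusted p = 0.0280), 1 of 10 tested. *Sulf1*, which removes sulfate groups from heparan sulfate, was 4.75 and 7.95 CPM in controls and 0 and 0.0093 CPM after deletion (lower, edgeR adjusted p = 0.0092), 1 of 14 genes tested for the synthesis and editing of heparan sulfate. *Fstl1*, a secreted glycoprotein of the SPARC family, was 1173 and 1283 CPM in controls and 662 and 626 CPM after deletion (-0.92 ± 0.16, edgeR adjusted p = 0.0317), 1 of 7 tested. In collector-like wells *Sulf1* was 16.4 and 15.0 CPM in these controls and 0 and 0 CPM after deletion, and *Sdc2* 93.5 and 71.9 against 0 and 0 CPM. In capillary-like wells *Sdc2* was 29.1 and 42.3 against 11.4 and 6.40 CPM. The part of the lower number of collector-like wells in the LEC sums of these genes was not tested. No gene was called among 9 basement membrane collagens and cross-linking genes (median 0.16) or among 6 other laminin chains and netrin 4.

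The average effect of the deletions called *Ext1*, an enzyme that extends the heparan sulfate chain, higher (1.32 ± 0.23 on the log2 scale, edgeR adjusted p = 0.0433), and *Bcam* and *Sulf1* lower, 3 of 55 where 0.958% of all genes were called. *Ext1* was 36.0 and 56.2 CPM in *Tie1* fl/fl, 72.4 and 101.5 CPM in *Tie1* iΔLEC, 63.2 and 43.8 CPM in *Tie1* *Tie2* fl/fl, and 167.1 and 186.4 CPM in *Tie1* *Tie2* iΔLEC. Tie1 deletion alone and the difference between the deletions called 0 of the 55. With Ang2 Ab, 10 of the 35 genes of these lists that had at least 100 UMIs passed 1.5-fold in LECs, 5 in each direction, where 7.85% of all genes did. The lists were chosen with earlier results of these data known, so these shares do not test the lists as a set. Each treatment had 1 library, and the mix of LEC classes differed between the libraries. *Ntn4* (2.73), *Sparcl1* (2.57), *Col15a1* (2.03), *Itga1* (1.86), and *Ext1* (1.55) were higher, and *Sdc2* (0.342), *Sdc1* (0.418), *Sulf2* (0.586), and *Tinagl1* (0.603) were among the lower, as ratios of Ang2 Ab to IgG.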

How the data were processed

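Ear skin LECs were measured in 8 Smart-seq plates and CD31-sorted skin cells in 2 10x libraries. The plate tables that the authors deposited give, for each well, counts of reads assigned to genes after alignment to GRCm38 (mm10) and removal of duplicates; the submitters' processing notes name TopHat2 2.1.1, SAMtools 0.1.18, Subread featureCounts, R 3.5.1, Seurat 4.0.6 and 4.0, and Cell Ranger 2.1.1. For the 10x libraries the authors deposited filtered UMI counts, and the file headers name another version of Cell Ranger. Whether the counting of the plates used strand is not given in the sources used here. The plate tables list either symbols or Ensembl identifiers, with 1 plate of each kind per genotype, and were joined on 42565 genes, which kept at least 95.8% of the counts of a plate.

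The members, the gene lists, and the tests were chosen with earlier results of these data known. The named genes are the 10 members, the genes of the 6 lists that passed the test or 1.5-fold (1 is not reported here), and the markers and targeted genes needed as checks. A well needed 1000 detected genes, and a droplet cell needed 500 and could hold no more than 10% of mitochondrial UMIs. Both were clustered without the 10 genes and the other pathway genes (Scanpy 1.11.5, leidenalg 0.10.2, resolution 1.0). Clusters were named from listed markers, with at least 3 raised by 1.5-fold, by a rule set on the data. Some LEC clusters stayed unnamed and enter the LEC sums only. No doublets were removed: Scrublet called 0.582% and 0.0675% of cells and so had not worked.

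Counts were summed over the LEC wells of a plate, or those of a class with at least 5 wells, and tested with the quasi-likelihood test of edgeR 4.0.16, with all 8 plates in 1 fit of 4 groups. Low genes were dropped by filterByExpr, sums were scaled by TMM, and p-values were adjusted by Benjamini-Hochberg over every gene in the fit, with a threshold of 0.05. DESeq2 1.42.0 and limma 3.58.1 (R 4.3.3) were alternatives. Classes were compared within plates on log2(CPM + 1) by an exact permutation test that flips signs over plates; its adjustment was planned over the 10 genes and is given here over the genes whose mean reached 1 CPM, and edgeR with the plate as a block was added after the data were seen. The 10x libraries were described with exact 95% intervals, which cover counting error only because PCR and sorting are not in them. CPM per kilobase used the merged exons of the GENCODE annotation of GRCm38, and promoters came from RefSeq on GRCm38.p6, which listed 7 of the 10 genes. The main edgeR fit of the LEC sums and the edgeR fit with the plate as a block were tested on simulated data with known changes. DESeq2, limma, and the other alternatives were not. Scripts ran on Python 3.11.15 with SciPy 1.17.1, and figures were drawn with matplotlib 3.10.9. Alternatives changed the scaling (RLE), the low-count filter, the well filter, the clustering, or the plates in the fit, or added a term for the replicate number or for the layout of the tables.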

Additional observations from a re-analysis of the deposited data

How the results depend on the processing

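With 2 plates per genotype and a single library per antibody, small folds were not detectable, and, of *Lama5*, the low capillary-like and collector-like counts limit what any fold there can show. With Tie1 deletion the fall of *Tie1* itself was not called by edgeR either. The sample labels give the plates no numbers that pair them: deviations of same-numbered plates had r = 0.109 (Tie1 strain) and 0.0915 (Tie1 Tie2 strain). With a replicate block Tie1/-2 deletion still called *Agrn* in LECs (-1.35, edgeR adjusted p = 0.0394), and 0 members in collector-like wells (*Agrn* -2.16, adjusted p = 0.0506).

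Tie1/-2 deletion called 1 member in LECs. DESeq2 called 2 (*Agrn*, *Lama5*) and no filter on low counts 3 (also *Nid2*), while the 4 plates of the strain alone, RLE factors, and wells without fibroblast reads each called 0, and fits without 1 plate called 0 to 1. Of 11 alternatives for *Agrn* there, 8 kept the call (adjusted p 0.000205 to 0.647). The difference between the deletions called 0 members, 1 with DESeq2 (*Lama5*) and 2 without the filter, and the average effect 0, 1 with DESeq2 (*Agrn*) and 2 without the filter. DESeq2 called 5.19% of all genes for Tie1/-2 deletion, 2.24% for the difference, and 4.47% for the average. In capillary-like wells DESeq2 called 2 members and no filter 1. In collector-like wells DESeq2 and no filter each called 4 and Leiden resolution 2.0 called 3, with a lone deleted plate, assumed to vary like the others; fits without 1 plate called 0 to 4. In valve-like wells DESeq2 and no filter each called 3, and fits without 1 plate 0 to 1. Between valve-like and capillary-like wells edgeR with the plate as a block called 6 on all 8 plates and 6 on the 4 control plates (*Agrn* in place of *Hspg2*), against 0 by the adjusted exact test, and 4 to 7 without 1 plate. The count of 0 members past 1.5-fold in Ang2 Ab LECs held under every 10x alternative run, while the *Sparc* ratio ranged from 0.713 to 1.25 and that of *Nid2* from 0.915 to 1.07. Of 4 members higher in LECs than in blood endothelial cells of both libraries, 3 were left with a mitochondrial limit of 5% (without *Lamb1*). The causes of these differences were not tested, and the fits that left out plates or wells also had fewer of them.

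Wells without fibroblast reads kept 592 LEC wells with 1 in a control plate, and turned 18 estimates. On the log2 scale these were, for Tie1/-2 deletion, *Hspg2* -0.040, *Lama4* 0.19, *Lama5* 0.20, *Lamb1* 0.45, *Lamb2* 0.10, and *Nid1* 1.05; for Tie1 deletion, *Agrn* -0.66, *Lama4* -0.10, *Nid2* 0.34, and *Sparc* -0.060; for the difference, *Lama4* 0.29, *Lamb1* 0.19, *Nid1* 0.62, and *Sparc* 1.58; and for the average, *Lama4* 0.043, *Lama5* 0.43, *Lamb1* 0.35, and *Nid1* 0.73. Leaving out 1 plate turned 24 further estimates, none of them called. The ranges for Tie1 deletion were *Agrn* -0.048 to 0.16, *Lama4* -0.10 to 0.20, *Lama5* -0.032 to 1.08, *Nid1* -0.011 to 0.48, and *Nid2* -0.62 to 0.064. For Tie1/-2 deletion they were *Hspg2* -0.056 to 0.77, *Lamb2* -0.59 to 0.15, *Lamc1* -0.23 to 0.0084, and *Nid1* -0.71 to 0.076. For the difference they were *Hspg2* -0.65 to 0.16 and *Lama4* -0.29 to 0.0026, and for the average *Lama4* -0.10 to 0.055, *Lamb2* -0.16 to 0.22, *Lamc1* -0.00039 to 0.11, and *Nid1* -0.25 to 0.14.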

Other observations

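A further cluster of 163 (IgG) and 130 (Ang2 Ab) droplet cells, with *Cd79a*, *Sbspon*, and *Cldn11* among its leading genes, stayed unnamed by the marker rule. It held 2401 and 2661 CPM of *Prox1*, the LEC transcription factor, against 978 and 1092 in LECs, and 18.03 and 38.3 of *Pdpn* against 275 and 236. *Lama5* was at 148 and 112 CPM there, against 8.97 and 5.87 in capillary-like LECs, a level not clearly above that of the few fibroblasts. *Nid2* was at 10.0 and 10.4, or 0.110 times (0.0666 to 0.172) and 0.130 times (0.0682 to 0.225), and *Hspg2* at 64.6 and 68.6, or 0.328 and 0.279 times. *Agrn* was at 177 and 136, and *Lama4* at 316 and 336. The valve-like plate wells include a cluster with *Cd79a* and *Sbspon* among its leading genes.

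Proliferating LECs, 80 and 47 droplet cells, held 1447 and 2408 CPM of *Sparc* against 169 and 180 in capillary-like LECs, and 259 and 528 of *Hspg2* against 197 and 246. Without that cluster the Ang2 Ab ratio of *Sparc* in LECs was 0.713 (0.671 to 0.757) in place of 0.988. Cartilage-like cells held the most *Sparc* of all classes, at 27729 and 28006, and the most *Nid2*, at 467 and 313.

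Across 30 points (15 classes in each of the 2 libraries, which share depth and free RNA) and 12795 genes, the gene whose log level was most like that of a member by Pearson's r was *Emp3* for *Sparc* (0.941), *Smtn* for *Lama4* (0.909), *Peak1* for *Lamc1* (0.905), *Luzp1* for *Lama5* (0.886), *Zcchc24* for *Nid1* (0.884), *Hcls1* for *Hspg2* (0.880), *Camk2d* for *Lamb2* (0.858), *Prrg2* for *Agrn* (0.850), *Raph1* for *Nid2* (0.825), and *Fscn1* for *Lamb1* (0.820).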
